A study of Mus musculus with 12 samples.

Results

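Every peak of the m6A profile whose only gene symbols were predicted gene models (symbols of the form Gm and a number) or RIKEN cDNA clones (symbols that end in Rik) is described here, across cadmium and control livers. The choice used the symbols alone and no measured value. Of 37118 peaks, 1547 (4.17%) met it, under 887 symbols, 585 of the Gm and 302 of the Rik kind. The data come from MeRIP-seq, in which fragmented RNA is pulled down with an antibody against N6-methyladenosine (m6A) and sequenced. The 3 control samples are livers of wild-type male C57BL/6 mice, aged 6 to 8 weeks in the labels' protocol, given 0 mg/kg/day CdCl2 by gavage and labelled day 90. The 3 cadmium samples are livers of the same strain, genotype and sex, given 20 mg/kg/day CdCl2 by gavage to day 90. The protocol counts 6 animals per group, and the labels do not say how the 3 samples relate to them, so p-values measure only the spread between these samples. Counts in peaks ranged from 40174736 to 52338612 per sample.

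Predicted and RIKEN symbols name transcripts that were found by sequence or cDNA clone before any function was known, and they cover long noncoding RNAs (lncRNAs), pseudogenes and little-studied coding genes. An m6A mark is placed on adenosines of nascent RNA by a methyltransferase complex, mostly within short sequences of the GGACU kind, and it is read by proteins that affect splicing, export, translation and decay. Many nuclear lncRNAs carry m6A, and pseudogenes that are copies of abundant mRNAs can take up reads of the parent gene. A count in a peak rises with the amount of the RNA and with its methylated share. These could not be told apart because the input counts were not analysed here, and in whole liver fewer cells of a type and less RNA per cell cannot be told apart either.

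The sequences below are shown because the peaks or start sites they cover carry the changes described further on. RefSeq's promoter windows (mm10, assembly GRCm38.p6) run from 250 bases before to 50 bases after a start site. The called peaks of Gm3734 and 1010001N08Rik were not searched for overlap with these windows. Among the other called peaks, 3 lay in such a window for at least 80 bases. For these, the stretch of the peak inside the window is printed on the + strand, with the word GGACT, its variants GGACA and GGACC and their opposite-strand forms in capitals: 2310034O05Rik at chr5:100217698-100217985 (in the window of Gm36304), Gm31105 at chr8:80880569-80880769 (in the window of Gab1) and Gm20388 at chr8:123652838-123652943 (in the window of Gm35874).
2310034O05Rik: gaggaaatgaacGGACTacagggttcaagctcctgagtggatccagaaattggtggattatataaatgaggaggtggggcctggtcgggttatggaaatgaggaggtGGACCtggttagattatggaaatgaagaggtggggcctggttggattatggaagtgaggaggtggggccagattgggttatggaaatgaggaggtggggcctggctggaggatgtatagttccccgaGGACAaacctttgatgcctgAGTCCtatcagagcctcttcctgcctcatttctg
Gm31105: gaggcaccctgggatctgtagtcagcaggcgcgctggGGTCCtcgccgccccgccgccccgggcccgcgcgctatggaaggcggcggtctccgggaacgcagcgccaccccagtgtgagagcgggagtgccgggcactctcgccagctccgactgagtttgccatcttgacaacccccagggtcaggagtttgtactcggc
Gm20388: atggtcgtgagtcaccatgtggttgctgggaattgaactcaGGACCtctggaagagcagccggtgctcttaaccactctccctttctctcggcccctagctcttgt
The 2310034O05Rik stretch held GGACT on both strands and GGACA and GGACC once each. The Gm31105 stretch held GGACC once, on the opposite strand, and the Gm20388 stretch held it once, on the printed strand. Such words are common: of all promoter windows cut to 288 bases, 43.8% held GGACT, 46.5% GGACA and 44.0% GGACC on either strand. GGACC was in 33.6% of windows cut to 201 bases and 19.3% of those cut to 106 bases. These matches are descriptions of letters and do not place a methylated base.

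The promoter windows of 3 lncRNA genes that rose at several peaks and of 1 that fell at several were searched on both strands for CACGTG (an E-box), TGCACNC and TGCGCNC (the core of metal response elements) and TGACNNNGC (the core of antioxidant response elements), with matches in capitals. They lie at chr10:122386645-122386944 (+ strand, Gm36041), chr12:110023936-110024235 (- strand, Gm34667), chr16:24090016-24090315 (- strand, Gm31583) and chr16:93354022-93354321 (- strand, 1810053B23Rik), each printed on its gene's strand.
Gm36041: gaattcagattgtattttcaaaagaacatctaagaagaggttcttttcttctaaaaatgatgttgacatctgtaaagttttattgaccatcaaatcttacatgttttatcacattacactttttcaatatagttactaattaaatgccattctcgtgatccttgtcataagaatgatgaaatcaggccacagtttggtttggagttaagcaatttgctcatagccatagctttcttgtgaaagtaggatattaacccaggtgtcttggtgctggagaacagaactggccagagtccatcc
Gm34667: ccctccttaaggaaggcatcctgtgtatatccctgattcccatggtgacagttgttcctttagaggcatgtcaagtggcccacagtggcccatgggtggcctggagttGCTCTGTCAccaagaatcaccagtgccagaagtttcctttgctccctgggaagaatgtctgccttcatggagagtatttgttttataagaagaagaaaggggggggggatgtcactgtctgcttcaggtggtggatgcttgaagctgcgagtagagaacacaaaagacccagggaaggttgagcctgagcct
Gm31583: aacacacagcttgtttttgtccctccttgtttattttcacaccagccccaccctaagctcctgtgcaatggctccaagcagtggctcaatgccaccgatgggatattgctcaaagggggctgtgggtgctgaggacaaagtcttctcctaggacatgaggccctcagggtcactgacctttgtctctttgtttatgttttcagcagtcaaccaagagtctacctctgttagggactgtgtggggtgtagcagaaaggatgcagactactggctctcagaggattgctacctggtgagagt
1810053B23Rik: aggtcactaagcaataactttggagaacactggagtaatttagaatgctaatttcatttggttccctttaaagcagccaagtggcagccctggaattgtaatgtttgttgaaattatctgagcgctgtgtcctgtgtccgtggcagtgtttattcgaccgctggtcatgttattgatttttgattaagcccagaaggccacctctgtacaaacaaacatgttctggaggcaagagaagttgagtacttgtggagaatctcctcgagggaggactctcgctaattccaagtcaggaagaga
The Gm34667 window held TGACNNNGC once, on the opposite strand, and the other 3 windows held none of the 4 words. Only 1 window per gene is printed. That of 1810053B23Rik lies inside its RefSeq gene (93343716 to 93359543) and does not cover the gene's 5' end. Among 32851 windows of the annotation, 7.15% held CACGTG, 12.6% TGCACNC, 15.4% TGCGCNC and 12.4% TGACNNNGC. Among 54 windows of 40 symbols with a called peak, the shares were 11.1%, 13%, 7.41% and 9.26%. Across all 456 windows found for 351 of the symbols, they were 9.21%, 18.4%, 19.3% and 16.7%.

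Cadmium and control livers differed at 139 of the 1544 predicted and RIKEN peaks that could be tested, with 100 higher and 39 lower in cadmium samples. A peak was called at an adjusted p below 0.05 in edgeR's quasi-likelihood test with Benjamini-Hochberg adjustment over all 37088 peaks tested. The share called was 9.0%, beside 6.27% of all tested peaks. Higher calls made up 6.48% of these peaks and 3.55% of all, and lower calls made up 2.53% and 2.72%. The median log2 change was 0.13, beside -0.003 over all peaks. Levels below are in CPM, counts divided by the TMM-scaled library size. All 3 cadmium samples lay above all 3 controls at 329 peaks (21.3%, beside 14.4% of all peaks), and all lay below at 147 (9.52%, beside 12.5%). The called peaks belonged to 84 symbols, 52 with a higher peak, 32 with a lower one and 0 with both. The change was at least 2-fold at 74 higher and 24 lower peaks. Log2 changes of called peaks ran from -2.05 to 3.02.

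**Figure D1:**
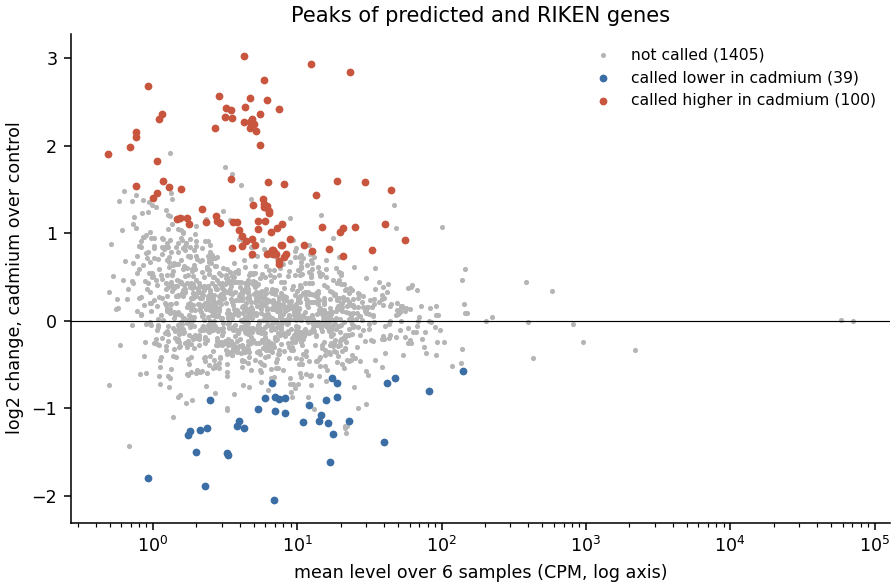
Log2 change (cadmium over control, y axis) against the mean level over the 6 samples in CPM (log x axis) for the 1544 tested peaks of predicted and RIKEN genes, 1 point per peak. The 100 peaks called higher reach a log2 change of 3.02 and the 39 called lower reach -2.05, and the 2 far-right points near 0 are Gm12895 and Gm12896.

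Not every call was equally stable. Leaving out 1 sample at a time, 47 of the 139 calls (37 higher, 10 lower) passed in all 6 reduced fits, 34 in 3 to 5 and 58 in at most 2. Without cadmium replicate 3 the count was 49 (38 higher, 11 lower) and without control replicate 3 it was 76 (57 higher, 19 lower). The shares called were 3.17% and 4.92%, beside 1.46% and 2.91% of all peaks tested in those fits. The largest adjusted p among called peaks was 0.0490 and the smallest among those not called 0.0502. Of 6 marker lists of other liver cell types, 3 had summed levels that did not overlap between the groups. The summed level of Kupffer cell markers (4 of 5 genes with a peak, Adgre1 without one, 2 of 10 peaks higher) was 109 to 171 CPM in control and 185 to 242 in cadmium samples. That of stellate cell markers (5 of 5 genes, 3 of 11 peaks higher) was 108 to 142 and 167 to 204 CPM, and that of lymphoid markers (2 of 5 genes, with Cd79a, Ms4a1 and Nkg7 lacking a peak, 0 of 3 called) was 2.24 to 2.95 and 3.24 to 4.76 CPM. The groups overlapped for endothelial (108 to 155 and 106 to 162 CPM), cholangiocyte (86.0 to 114 and 84.7 to 293) and erythroid markers (45.7 to 77.9 and 40.0 to 133). Hepatocyte markers, all 5 with peaks, summed to 16600 to 18250 CPM in control and 15420 to 17900 in cadmium samples, with 0 of 32 peaks called. The part of these markers in the counts of called peaks was not tested.

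The calls were unevenly spread over kinds of gene, and lncRNA peaks held most of the rises. Of 432 tested peaks whose symbols RefSeq lists as lncRNA, 56 were higher and 14 lower (16.2% called, median log2 change 0.31). Without the peaks that carry only Gm36041 or Gm34667, 2 lncRNA genes with many called peaks, 32 were higher and 14 lower of 407 (11.3%). Pseudogene peaks showed 3 higher and 11 lower of 262 (5.34%, median 0.00), and peaks of protein-coding genes 17 higher and 3 lower of 402 (4.98%). Of 39 peaks of transcribed pseudogenes, 5 were higher and 1 lower. Peaks with at least 1 symbol that RefSeq did not list numbered 350, 19 of them higher and 9 lower. Some of these also carry a listed symbol, and of the 255 with no listed symbol, 5 were higher and 7 lower. By symbol, 79 of 886 peaks with only Gm symbols were higher and 26 lower, against 19 and 13 of 570 with only Rik symbols. The differences between these kinds were not tested, since peaks of a gene share their RNA and are not independent.

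Predicted and RIKEN peaks were smaller than most. Their median level was 5.12 CPM, beside 7.49 over all peaks, and their median width 214 bp, beside 229 bp. Read at like level, the share called exceeded that of peaks with any other gene symbol in each of 4 bands of level (the quartiles of all peaks): 6.46% against 4.95% in the lowest (up to 3.46 CPM), 14.7% against 6.02% in the second (up to 7.49 CPM), 7.63% against 5.97% in the third (up to 18.4 CPM) and 7.88% against 6.63% in the highest. Of the peaks of Gm36041 and Gm34667, 20 lay in the second band. Those 2 genes supplied 30 of the 100 higher calls. With 1 peak kept per gene, the one of highest level, 64 of 787 were called (36 higher, 28 lower, 8.13%). For other annotations 1 peak was kept per annotation, and 774 of 11807 were called (6.56%). The rules differ, so the 2 shares are not strictly like for like. Both choices were made after seeing the data.

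Gm36041, a lncRNA gene of chromosome 10 (122386895 to 122434068 in RefSeq), rose at every one of its 16 peaks. Log2 changes ran from 1.33 to 2.56 with a median of 2.31. Its summed level over the 16 peaks was 25.5, 30.8 and 35.4 CPM in control replicates 1, 2 and 3, and 174, 109 and 102 CPM in cadmium replicates 1, 2 and 3. Cadmium replicate 1 was the highest sample and no cadmium sample overlapped a control. The peak at 122391057 to 122391949 stood at 1.87, 2.49 and 2.76 CPM in control and 18.4, 10.9 and 8.68 CPM in cadmium samples, a rise of 5.32-fold (2.38 ± 0.456 to 12.7 ± 5.06 CPM, SD, n = 3, log2 change 2.41, SE 0.28, edgeR adjusted p = 0.00163). The smallest adjusted p was 0.000967, at 122431206 to 122431481 (log2 change 2.56). At each of the 16 peaks the call held in all 6 fits that left out a sample. The peak nearest to the start site printed above (122386966 to 122387397) had the highest control level, 7.26 ± 1.79 CPM (SD, n = 3), and one of the smaller changes, 1.44. Of the 16 peaks, 6 towards the far end also carry the symbol Gm48877, so that their reads cannot be assigned to one gene. Beyond them, the nearest peak with another kind of symbol, shared by Avpr1a (a vasopressin receptor gene of hepatocytes) and Gm48877, lay 14461 bp away and was also called higher (58.4 ± 6.85 to 101 ± 10.8 CPM, SD, n = 3, log2 change 0.79, adjusted p = 0.0155). Of 3 peaks with Gm48877 as the only symbol, 2 between these and 1 past them, none was called (adjusted p = 0.0798, 0.0534 and 0.28).

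Gm34667, a lncRNA gene of chromosome 12 (109992758 to 110023992 in RefSeq), rose at 14 of its 15 peaks. Its summed level was 100, 72.2 and 69.0 CPM in control replicates 1, 2 and 3, and 215, 140 and 206 CPM in cadmium replicates 1, 2 and 3. At each of the 15 peaks the 3 cadmium samples lay above the 3 controls, with a median log2 change of 1.25 (0.82 to 1.59). The most abundant peak, at 109991948 to 109992772, stood at 19.3, 11.4 and 13.2 CPM in control and 48.1, 32.0 and 52.2 CPM in cadmium samples (14.7 ± 4.15 to 44.1 ± 10.7, SD, n = 3, log2 change 1.59, SE 0.24, adjusted p = 0.00505). It lay just outside the RefSeq gene for most of its length, beyond the 3' end of this gene on the - strand. The peak at 109995382 to 109996185 was the exception (log2 change 0.86, adjusted p = 0.0540, and 0.0204 with the replicate number as a block). The gene's peaks also split by stability: 5 were called in all 6 fits that left out a sample, and 9 were lost in at least 1, most often without control replicate 3 or cadmium replicate 3, at adjusted p up to 0.152. The peak at 109998079 to 109999302 (0.82, adjusted p = 0.0482) was lost without either cadmium replicate 1 or 3 or any 1 of the controls, and with scaling to total counts (adjusted p = 0.0653).

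**Figure D2:**
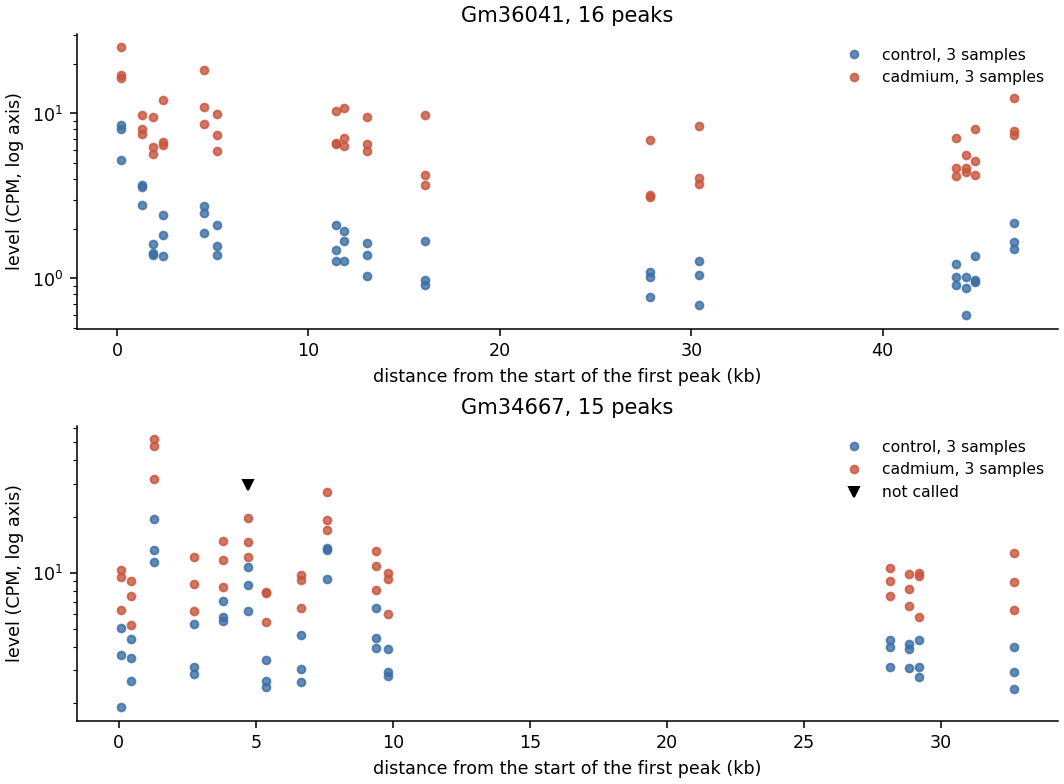
Level in CPM (log y axis) of each peak of Gm36041 (16 peaks, upper panel) and Gm34667 (15 peaks, lower panel) by the distance of the peak's centre from the start of the first peak (kb), 1 point per sample, 3 control and 3 cadmium samples. The cadmium points lie above the control points at every peak of both genes, and the triangle marks the 1 Gm34667 peak that was not called.

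Other genes rose at several peaks each. Gm3734, a lncRNA gene of chromosome 18, was called higher at all 4 peaks (median log2 change 2.79). Its peak at 46630959 to 46631362 rose from 4.07, 2.45 and 2.17 CPM in control to 11.4, 34.6 and 20.5 CPM in cadmium samples (log2 change 2.93, SE 0.38, adjusted p = 0.00265), the steepest rise among called peaks at or above the group's median level. Cadmium replicate 2 was the highest there, and the groups did not overlap. Gm31583, a lncRNA gene of chromosome 16, was called at 3 of 4 peaks, and the peak at 24089582 to 24090063, next to its printed start site, rose from 2.69, 1.67 and 2.22 to 6.74, 10.6 and 9.10 CPM (log2 change 2.01, SE 0.23, adjusted p = 0.00161). The remaining Gm31583 peak also had all cadmium samples above the controls (log2 change 1.39, adjusted p = 0.0867, and 0.0364 with the replicate number as a block). Gm31333, a lncRNA gene of chromosome 12 singled out after its values were seen, was called at 3 of 3 peaks, all under 3 CPM in each sample (log2 changes 2.16 to 2.68). One of the 3, at 29177388 to 29177607, lost its call without cadmium replicate 3 (adjusted p = 0.0770).

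Coding genes and a transcribed pseudogene followed. The coding gene 2010003K11Rik on chromosome 19 was higher at both peaks. At 4498154 to 4498517 its levels were 8.21, 11.6 and 8.45 CPM in control and 20.2, 28.7 and 36.5 CPM in cadmium samples (log2 change 1.59, SE 0.23, adjusted p = 0.00407). At 4496800 to 4497657 they were 21.0, 30.4 and 19.0 against 47.9, 65.8 and 85.0 CPM (log2 change 1.5, adjusted p = 0.00675). Both calls held in all 6 fits that left out a sample. Gm10319, a transcribed pseudogene of chromosome 6, was higher at all 4 peaks by a similar amount, 2.01-fold to 2.15-fold. Its largest peak (122142576 to 122144149) stood at 25.9, 28.4 and 23.1 CPM in control and 66.6, 45.6 and 54.0 CPM in cadmium samples (log2 change 1.1, SE 0.17, adjusted p = 0.00656). Of its 4 peaks, 2 were lost without cadmium replicate 3 or control replicate 3, and 1 of these also without control replicate 2 (adjusted p up to 0.0686).

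Single peaks of other genes rose as far. Gm379, a pseudogene of chromosome X, had the largest rise of all (108664102 to 108664960, 1.28, 1.16 and 0.317 CPM in control and 7.90, 6.42 and 8.38 CPM in cadmium samples, log2 change 3.02, SE 0.37, adjusted p = 0.00192). It was below the group's median level and was singled out after its values were seen. Another such peak was that of Gm30906, a lncRNA gene of chromosome 10, at 8192811 to 8193682 (1.75 ± 0.719 to 8.29 ± 0.742 CPM, SD, n = 3, log2 change 2.25, adjusted p = 0.00217). The coding gene Gm13889 on chromosome 2 (93955866 to 93956785) had tight groups, 8.15, 11.1 and 9.67 CPM in control and 19.9, 20.0 and 20.9 CPM in cadmium samples (log2 change 1.07, SE 0.16, adjusted p = 0.00481). These 3 calls held in every fit that left out a sample. Smaller rises were called for the lncRNA genes A930038B10Rik (log2 change 1.02, adjusted p = 0.00957) and 4930556M19Rik (0.87, adjusted p = 0.0101), and without cadmium replicate 3 their adjusted p values were up to 0.0713. The peak shared by 4732419C18Rik and Gm20388 (1.05, adjusted p = 0.0440) was called in only 1 of the 6 reduced fits, the one without cadmium replicate 2. Gm4952, a coding gene next to Glyat (a glycine conjugation enzyme gene), was called at 2 of 3 peaks. The larger, at 12626702 to 12627318 on chromosome 19, rose from 31.1, 49.2 and 36.0 to 55.9, 94.1 and 70.4 CPM (log2 change 0.92, SE 0.22, adjusted p = 0.0366), and it was lost without control replicate 1 or 3 or cadmium replicate 2 or 3 (adjusted p up to 0.122) and with scaling to total counts (0.0570).

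**Figure D3:**
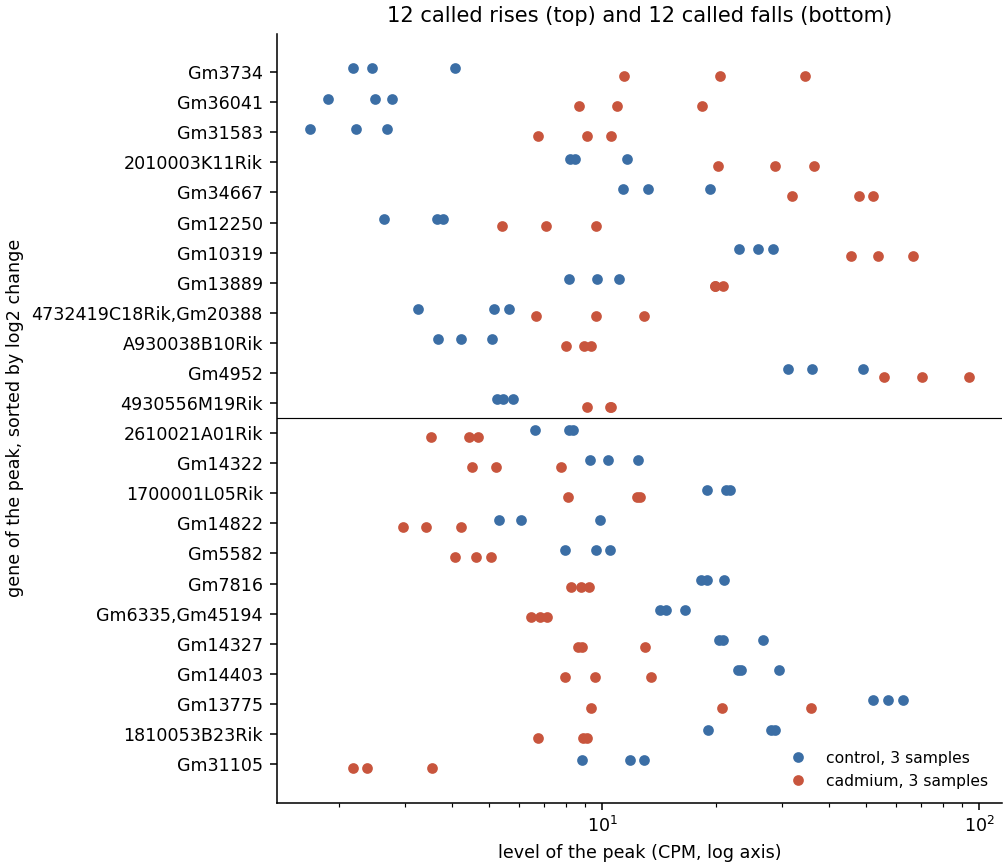
Level in CPM (log x axis) of the 12 called rises (above the line) and 12 called falls (below it) with the largest log2 change among peaks at or above the group's median level, 1 peak per gene, 1 point per sample. In each of the 24 peaks the 3 cadmium points and the 3 control points do not overlap, and the steepest pair are Gm3734 (log2 change 2.93) and Gm31105 (-2.05).

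The steepest fall was at Gm31105 on chromosome 8 (80880569 to 80881096), which covers the stretch printed above. Its levels were 11.8, 12.9 and 8.81 CPM in control and 2.17, 3.53 and 2.37 CPM in cadmium samples, a change of 4.14-fold (11.2 ± 2.13 to 2.69 ± 0.730, SD, n = 3, log2 change -2.05, SE 0.23, adjusted p = 0.00131). Cadmium and control values did not overlap, and the call held in all 6 fits that left out a sample. The lncRNA gene 1810053B23Rik of chromosome 16 fell at 5 of its 6 peaks (median log2 change -1.32), and all 6 had every cadmium sample below the controls. Its largest peak, at 93343550 to 93344366, stood at 19.1, 28.1 and 28.7 CPM in control and 9.10, 8.90 and 6.77 CPM in cadmium samples (log2 change -1.61, SE 0.20, adjusted p = 0.00209). Of its 5 calls, 3 held in all 6 reduced fits. The one at 93346867 to 93346968 was lost without cadmium replicate 3 (adjusted p = 0.0606), and the one at 93346391 to 93346496 (adjusted p = 0.0483) was lost in every reduced fit, with the replicate number as a block (adjusted p = 0.0669) and with scaling to total counts (0.108).

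A stretch of distal chromosome 2 that holds zinc-finger genes (175089350 to 177897397, bounded by 2 of the falls below and so chosen after its values were seen) had 35 tested predicted and RIKEN peaks, 6 lower and 0 higher. All 35 log2 changes were below 0 (median -0.49), and on the whole chromosome 5 of 119 such peaks were higher and 7 lower. Of the stretch's 11 peaks with a Zfp symbol, 4 were lower and 0 higher. The 6 calls were at 4 genes. Gm14403, a lncRNA gene, fell at all 3 peaks. At 177508428 to 177508986 it stood at 23.3, 29.4 and 22.9 CPM in control and 13.5, 9.55 and 7.94 CPM in cadmium samples (log2 change -1.29, SE 0.21, adjusted p = 0.00705). Gm14327, a transcribed pseudogene, went from 26.7, 20.5 and 20.9 to 13, 8.84 and 8.62 CPM (log2 change -1.16, adjusted p = 0.00865), and the coding gene Gm14322 from 12.4, 10.4 and 9.27 to 7.75, 4.52 and 5.22 CPM (log2 change -0.88, adjusted p = 0.0399). Gm14387, singled out after its values were seen, was the lowest of the 4, falling from 4.93, 3.19 and 2.74 to 1.28, 1.05 and 0.609 CPM (log2 change -1.89, adjusted p = 0.00882). The cadmium samples lay below the controls at all of these peaks. Peaks of named neighbours were lower too: Zfp970 fell at 4 of its 4 peaks (at 177477717 to 177479180 by 1.41 on the log2 scale, adjusted p = 0.0031) and the peak shared by Gm14327 and Zfp972 fell by 1.12 (adjusted p = 0.0173). These genes are near copies of each other, and the labels do not say how reads that match several places were assigned, so their separate values are uncertain. The calls of Gm14387 and of the Gm14403 peak above held in all 6 reduced fits. Those of Gm14327 and the other Gm14403 peaks were lost without cadmium replicate 3 (adjusted p up to 0.0952), and that of Gm14322 in each reduced fit but the one without cadmium replicate 1 (up to 0.173) and with scaling to total counts (0.0695).

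Pseudogenes fell at 11 peaks. Gm7816, a pseudogene of chromosome 5, fell at all 3 peaks, and at 39798686 to 39798828 its levels were 27.0, 32.5 and 34.9 CPM in control and 14.1, 14.2 and 14.4 CPM in cadmium samples (log2 change -1.14, SE 0.15, adjusted p = 0.00281). The peak shared by the pseudogene Gm6335 and Gm45194 on chromosome X (112162734 to 112162861) is not among the 11, since RefSeq does not list Gm45194. It was similar, 14.8, 14.2 and 16.6 against 6.83, 7.13 and 6.49 CPM (log2 change -1.16, SE 0.15, adjusted p = 0.00247). Both calls held in all 6 reduced fits. Of the 2 other Gm7816 peaks, that at 39798963 to 39799073 was lost without control replicate 3, cadmium replicate 1 or cadmium replicate 3 (adjusted p up to 0.0978). Gm5582, on chromosome 6, stood at 7.96, 9.64 and 10.5 CPM in control and 5.08, 4.07 and 4.64 CPM in cadmium samples (log2 change -1.03, adjusted p = 0.00867), and was lost without cadmium replicate 3 (adjusted p = 0.0545). Gm18635, described with its neighbour below, and Gm7232 also fell by more than 2-fold (log2 changes -1.20 and -1.26, adjusted p = 0.018 and 0.0352). Gm7232, named after its values were seen, was called in only 1 of the 6 reduced fits. Some other pseudogenes fell by less than 2-fold. Among them, Gm15459 fell by 0.80 on the log2 scale (104 ± 14.8 to 59.6 ± 2.52 CPM, SD, n = 3, adjusted p = 0.0133). Gm9797 fell by 0.71 (adjusted p = 0.0214), Gm10053 by 0.70 (adjusted p = 0.0339) and Gm10108 by 0.65 (adjusted p = 0.0462). These 4 were named after their values were seen. Each was lost without control replicate 3 and without cadmium replicate 3, and some without other samples too (adjusted p up to 0.217). Scaled to total counts, Gm9797, Gm10053 and Gm10108 were not called (adjusted p = 0.0531, 0.08 and 0.123), nor was Gm10108 when only peaks of at least median level entered. Reads of a pseudogene and of its parent may be shared, and this was not tested.

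Further falls named by size follow. The lncRNA gene 1700001L05Rik of chromosome 15 fell at 2 of 3 peaks, from 21.3, 21.8 and 19.0 to 8.11, 12.6 and 12.4 CPM at 83358084 to 83358947 (log2 change -0.90, SE 0.19, adjusted p = 0.0204). That peak was lost without cadmium replicate 3 (adjusted p = 0.0680), and the gene's other called peak held in all 6 reduced fits. Gm14822 on chromosome X (log2 change -1.0, adjusted p = 0.0399) and 2610021A01Rik on chromosome 7 (-0.87, adjusted p = 0.0205) were lost without control replicate 3 or cadmium replicate 3, and Gm14822 also without control replicate 2 or cadmium replicate 1 (adjusted p up to 0.152). Scaled to total counts without TMM, both were also lost (adjusted p = 0.0767 for Gm14822 and 0.0624 for 2610021A01Rik). Gm13775 on chromosome 4 lies among the major urinary protein genes, a large family of near-identical copies. Of its 6 peaks, all with log2 changes below 0, 1 was called and 5 were not (adjusted p up to 0.188). The called peak, at 61800989 to 61801257, stood at 52.4, 57.3 and 62.8 CPM in control and 20.8, 35.8 and 9.34 CPM in cadmium samples (log2 change -1.39, SE 0.36, adjusted p = 0.0487). It was not called by DESeq2 (adjusted p = 0.0569) or with scaling to total counts (0.0745). The call was also lost without the low-count filter and when only peaks of at least median level entered. Among the 6 reduced fits it was lost in 5, all but the one without cadmium replicate 2.

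Listed interferon-inducible GTPase-like genes, which belong to families that act in cell-autonomous defence, were higher at 9 of 35 peaks and lower at none. Of all tested peaks, 3.55% were called higher and 2.72% lower. The 9 calls came from 2 of the 5 listed genes with a peak, 7 of them from Gm4070. Peaks of a gene share their RNA and are not independent. Gm12250, which RefSeq also names Irgb10, rose at both peaks, from 3.65, 3.79 and 2.63 to 5.41, 9.64 and 7.09 CPM at 58188372 to 58189057 of chromosome 11 (log2 change 1.14, SE 0.24, adjusted p = 0.0208). Gm4070, which carries the synonym VLIG-1 in RefSeq, was called at 7 of 11 peaks (median log2 change 0.76, 0.55 to 0.86). Of the 11, 8 also carry the symbol Gm20663, and 6 of the 7 calls are among them. Reads of these shared peaks cannot be assigned to a single gene. The largest Gm4070 peak, at 105898838 to 105900215 of chromosome 7 and without that second symbol, stood at 25.2, 29.7 and 17.5 CPM in control and 38.7, 44.4 and 43.4 CPM in cadmium samples (log2 change 0.80, SE 0.19, adjusted p = 0.0363). Control replicate 3 was the lowest sample there, and the groups did not overlap. By contrast, 0 of 13 peaks of Gm4951 (Ifgga2), 0 of 7 of Gm12185 (Irgb2b1) and 0 of 2 of Gm4841 (Ifgga3) were called, with median log2 changes of -0.01, 0.28 and -0.25. Of these 22 peaks, 1, of Gm12185, had an unadjusted p below 0.05 in edgeR's test, and DESeq2 called 0. Gm5431 (Irgb9b8 in RefSeq), which was not on the list and was singled out after its values were seen, rose at 2 of 4 peaks (0.76 and 0.86, adjusted p = 0.0469 and 0.0165). Gm50237, also not on the list, lies past Gm4951 and Gm4841 on chromosome 18, and some of its peaks carry the symbol F830016B08Rik. Of its 17 peaks 0 were called (median log2 change -0.03). Every called peak of Gm12250, Gm5431 and Gm4070 lost its call without cadmium replicate 2, without cadmium replicate 3 and without control replicate 3. Adjusted p in the reduced fits was up to 0.0952, 0.146 and 0.216 for the 3 genes. With the replicate number as a block 10 peaks of the list were called, 1 of the 7 Gm4070 calls being lost (adjusted p = 0.0578) and 2 Gm4070 peaks gained. Scaled to total counts, 4 Gm4070 peaks and 1 Gm5431 peak were lost (adjusted p up to 0.0608 and 0.0967). The summed Kupffer and lymphoid marker levels given above were higher in the cadmium samples too, and their part in this group was not tested.

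Repeat loci were not called by edgeR's test unless replicate numbers were paired, and mitochondria-like loci in neither fit. Of 16 listed ribosomal and satellite repeat loci, 9 had peaks: Gm10717, Gm10718, Gm10719, Gm10721, Gm10722, Gm10800, Gm10801, Gm11168 and Gm21738. The other listed loci, Gm42418 and Gm26917 among them, had no peak in this group, and the values below do not cover them. Of the 29 peaks, 0 were called, with every log2 change above 0 (0.38 to 0.92, median 0.61). With the replicate number as a block, 17 of the 29 were called higher (adjusted p 0.00996 to 0.0488) and 0 lower. Unpaired, 5 had an unadjusted p below 0.05 in edgeR's test, and DESeq2 called 2. The values of the Gm10722 peak at 3001335 to 3001521 of chromosome 9 show how the samples spread, 4.38, 7.71 and 7.38 CPM in control and 9.08, 15.4 and 12.2 CPM in cadmium samples (adjusted p = 0.0556). Its cadmium samples all lay above its controls, and replicate 1 was the lowest sample of each group. Its 2 other peaks overlapped between groups. The whole list held 0.0214, 0.0560 and 0.0406% of counts in control replicates 1, 2 and 3 and 0.0384, 0.0853 and 0.0579% in cadmium replicates 1, 2 and 3 (exact two-sided permutation p = 0.4, with 0.10 the smallest p for 3 against 3). Of 8 listed mitochondria-like pseudogenes, which are nuclear copies of mitochondrial DNA, 5 shared 4 peaks. All 4 had log2 changes below 0 (-0.48 to -0.24) and 0 were called by edgeR, with or without the block, or by DESeq2, and 0 had an unadjusted p below 0.05. Their share of counts was 0.410, 0.450 and 0.361% in control and 0.462, 0.269 and 0.274% in cadmium samples (exact permutation p = 0.4). Peaks of the mitochondrial chromosome itself took 0.850, 1.01 and 0.803% in control and 0.963, 0.608 and 0.575% in cadmium samples, with cadmium replicate 1 again the highest of its group.

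Listed metabolic and liver genes gave 0 calls at 12 peaks of 4 genes by edgeR or DESeq2, with 2 at an unadjusted p below 0.05. Gm4788, a complement factor H-related gene (Cfhrc in RefSeq), had 7 peaks with log2 changes of -0.36 to -0.02. The lncRNA gene 1810008I18Rik had high but scattered peaks, 93.6, 41.3 and 61.0 CPM in control and 212, 60.9 and 138 CPM in cadmium samples at 65805734 to 65806859 of chromosome 7. Within each replicate number the cadmium sample was the higher, and with the replicate number as a block this peak and the gene's other peak passed (log2 change 1.07, adjusted p = 0.143 without the block and 0.0109 with it for the former). Gm3776, which lies among glutathione transferase genes, ranged from 0.922 to 24.9 CPM with no order by group (log2 change -0.59, adjusted p = 0.733).

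Gm12896 and Gm12895 were by far the most abundant peaks. The Gm12896 peak (chromosome 4, 122122841 to 122122984) held 9.55, 2.77 and 7.98% of all counts in control replicates 1, 2 and 3 and 5.59, 4.56 and 10.7% in cadmium replicates 1, 2 and 3. The Gm12895 peak (122455252 to 122455386) held 7.82, 2.19 and 6.76% in control and 4.37, 3.83 and 9.03% in cadmium samples. Both moved together between samples, with Gm12895 at 0.781 to 0.848 of the Gm12896 count in each of the 6. Neither was called (log2 changes 0.01 and 0.00, SE 0.47 and 0.46, edgeR adjusted p = 0.997 and 0.999). In the fits that left out a sample, the log2 change ran from -0.60 to 0.35 for Gm12895 and from -0.57 to 0.36 for Gm12896. With this spread the fits do not show that the groups were equal. Whether reads can be told apart between the 2 peaks was not tested. The other 1545 peaks held 2.1, 2.42 and 2.13% of counts in control and 2.49, 2.36 and 2.04% in cadmium samples (2.22 ± 0.179 and 2.30 ± 0.233%, SD, n = 3, exact permutation p = 0.8). Over all 1547 the shares were 14.6 ± 6.36% and 15 ± 5.91% (SD, n = 3, exact permutation p = 1), and the difference of 0.41 percentage points became -3.19 without control replicate 2 and -2.97 without cadmium replicate 3. After these, the most counted peaks were of the mitochondria-like Gm28437 with Gm10925, Gm28661 and Gm29216, of Gm41804, of Gm17660 with Gm43333 and of Gm1821, a ubiquitin B pseudogene, each at 0.0290 to 0.277% of counts in each sample, and 0 of these 6 were called by edgeR or DESeq2 or had an unadjusted p below 0.05.

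**Figure D4:**
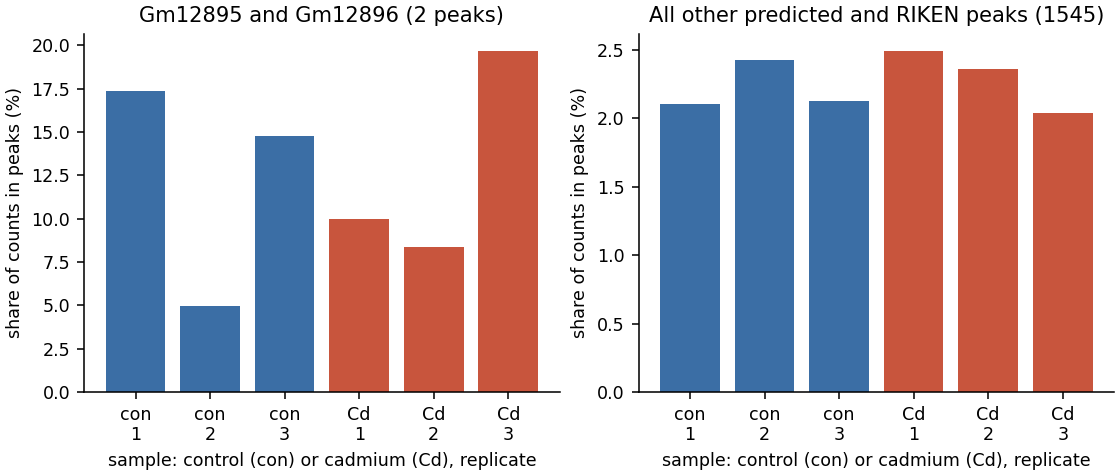
Share of each sample's counts in peaks (%, bars from 0) held by Gm12895 and Gm12896 (left) and by the other 1545 peaks of predicted and RIKEN genes (right), 1 bar per sample, control (con) and cadmium (Cd) replicates 1 to 3. The 2 abundant peaks range from 4.95 to 19.7% without order by group, while the others stay between 2.04 and 2.49% (the panels have different y axes).

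Most symbols had few peaks, 550 of 887 a single one and 66 at least 5. Besides Gm36041, the other 4 of the 5 genes with the most peaks gave few calls. Gm20388, a model whose peaks span 4048725 bp of chromosome 8 across many named genes, had 25 peaks with no other kind of symbol, 3 of them higher and 0 lower. A further 155 peaks carried its symbol beside that of a named gene, with 5 higher and 0 lower. Peaks of 9030622O22Rik (18, a lncRNA gene of chromosome 2, median log2 change 0.22), Gm50237 (17, chromosome 18, -0.03) and 2900026A02Rik (16, a coding gene also named Kiaa1671, 0.16) gave 0 calls by edgeR or DESeq2, and 1 of them, of 2900026A02Rik, had an unadjusted p below 0.05.

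Where a called peak lay close to a called peak of another gene, both went the same way. Within 5 kb of a peak of a gene with another kind of symbol lay 185 of the tested peaks, and 8 of them were called. The neighbouring peak was called the same way in 6 of the 8 and the opposite way in 0. In all, 16 of the 185 neighbours were called, 10 of them beside a peak that was not. The neighbour of Gm44421 was Klf15, a glucocorticoid-responsive transcription factor gene, 4168 bp away (log2 changes -1.23 and -0.71, adjusted p = 0.0158 and 0.0411). Gm18635, a pseudogene, lay 1058 bp from Ugt2b35, a glucuronosyltransferase gene (-1.20 and -1.05, adjusted p = 0.018 and 0.0101). Gm20388, at the third stretch printed above, lay 972 bp from a peak shared with Rhou (2.31 and 0.90, adjusted p = 0.035 and 0.0304). E030037K01Rik lay 214 bp from a peak shared with Cdkn2aip (0.83 and 0.69, adjusted p = 0.0368 and 0.0298), and Gm13775 lay 867 bp from one shared with Mup-ps16 (-1.39 and -1.50, adjusted p = 0.0487 and 0.0447).

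Both other neighbours missed the threshold. Gm31105 lay 74 bp from a peak that it shares with Gab1, a docking protein gene of receptor kinase signalling. That peak stood at 16.4, 12.8 and 13.2 CPM in control and 9.58, 8.99 and 11.7 CPM in cadmium samples (log2 change -0.49, adjusted p = 0.119), against -2.05 at the Gm31105 peak. Of the 2 peaks that carry the Gab1 symbol, the other was called lower. Gm32511 lay 99 bp from a peak it shares with Aqp9, the glycerol channel of hepatocytes (1.13 and 0.91, adjusted p = 0.022 and 0.0718). Across the 185 pairs the log2 changes correlated with r = 0.70 and rho = 0.56, a description over peaks that share libraries, and in 97 pairs also a symbol. Within 1 kb, 4 of 6 called peaks had a neighbour called the same way, and within 20 kb, 14 of 33, again with 0 opposite. Of the 8 calls, that of Gm31105 held in all 6 reduced fits and those of Gm44421 and Gm18635 in 4. The other 5 held in 1 or 2, at adjusted p up to 0.172.

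**Figure D5:**
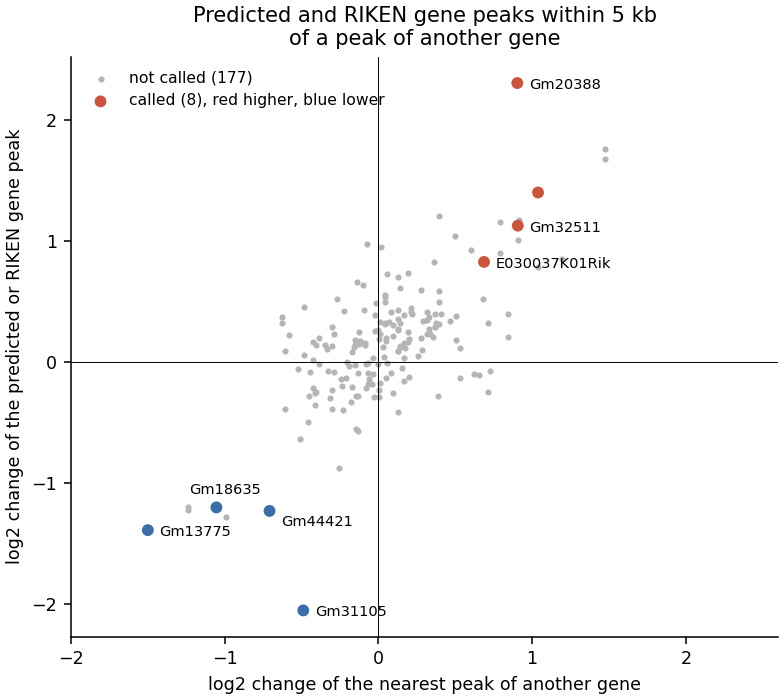
Log2 change (cadmium over control) of each of 185 predicted or RIKEN gene peaks (y axis) against that of the nearest peak of a gene with another kind of symbol within 5 kb (x axis), 1 point per peak, with 7 of the 8 called ones named. All 8 lie in the quadrants where both changes have the same sign, and Gm31105 is the farthest from its neighbour among the falls (-2.05 against -0.49).

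The authors' deposited table calls 110 of these peaks Up and 33 Down, of 986 and 587 in the whole table. In the authors' deposited table every such call has an absolute log2 change of at least 1 and an unadjusted p of at most 0.0492. Of those, 73 Up and 24 Down peaks were also called here, and 42 peaks called here are listed there as not significant.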

How the data were processed

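Liver m6A immunoprecipitates of 3 control and 3 cadmium samples were compared (12 libraries in the labels). The submitters' processing notes name MACS2 2.1.1, STAR 2.7.1a, cutadapt 1.1.8, DESeq2 4.1.0 (the number is theirs) and SAMtools 1.3.1, on mm10, with no settings. Whether peaks were called on pooled samples, whether counting used strand and whether starts count from 0 are not given in the sources used here. Raw counts per peak in the deposited table were tested. The authors' log2 fold change, p-value and adjusted p-value in that table were only compared. Its count columns are headed by numbers that immunoprecipitate and input libraries share; reading them as immunoprecipitate is an assumption.

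Counts were fitted with edgeR 4.0.16 in R 4.3.3 (TMM, filterByExpr with minimum count 10 and total 15, 37088 peaks kept, of which 1544 of the 1547 described; quasi-likelihood F test; biological coefficient of variation 19.4%). Levels are CPM. SE is the absolute log2 change over the square root of F. The script was tested on simulated data. Replicates never agreed within sampling noise (chi-square per degree of freedom 31.9 to 162). The labels name replicate numbers as batches; deviations from group means correlated at 0.146, 0.214 and 0.174 within numbers and -0.173 to 0.0163 across, so the block was an alternative, with other scalings, filters, DESeq2 1.42.0 and left-out samples. Of 887 symbols, 704 matched RefSeq (GRCm38.p6). Positions are as deposited, on mm10; exon, intron and UTR were not analysed here.

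Peaks named in the text are the 12 called rises and 12 called falls with the largest log2 change at or above the group's median level (1 per gene), the 8 most counted, genes on 4 lists, the 5 genes with most peaks and the 8 called peaks of smallest p within 5 kb of another gene's peak; other peaks of those genes are added, and some genes named after their values were seen are marked so. Of the last 8, 1 is not reported here. The set of peaks and the lists were chosen with earlier results of these data known.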

Additional observations from a re-analysis of the deposited data

How the results depend on the processing

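The count of called peaks, 139 (100 higher, 39 lower), was 137 with DESeq2's size factors, 140 with library sizes computed without Gm12895 and Gm12896 and 138 without the low-count filter. The shares called in these fits were 8.87 to 9.08%, beside 6.17 to 6.28% of all tested peaks. DESeq2's Wald test called 220 (152 higher, 68 lower), and 138 of the 139 were among them. It called 14.25% of the described peaks, beside 10% of all. The replicate block, a paired analysis, called 198 (147 higher, 51 lower), with 135 of the 139 among them (12.8%, beside 8.48% of all peaks). Scaling to total counts without TMM shifted the median log2 change of all peaks from -0.003 to 0.04 and that of the described peaks from 0.13 to 0.17. It called 109 (86 higher, 23 lower, 7.06%, beside 4.38% of all peaks). With only the peaks whose level reached the overall median, 44 were called (27 higher, 17 lower, 61.4% higher where the full set had 71.9%), with a median of 0.10. The share called was 7.56%, beside 5.69% of all peaks in that fit. Fewer peaks entered that fit, and the median log2 change falls with level, from 0.26 in the lowest to 0.05 in the highest quartile. With 1 peak per gene 64 were called (36 higher), and without Gm36041 and Gm34667 109 (70 higher, 39 lower). Both were chosen after seeing the data. Leaving out 1 sample at a time gave 49 to 134 calls (38 to 92 higher, 11 to 48 lower) and a median of 0.11 to 0.16. The share called ran from 3.17% without cadmium replicate 3 (1.46% of all peaks) to 8.67% without control replicate 1 (5.33% of all). The share of higher calls among these ranged from 61.9% (without cadmium replicate 1) to 77.6% (without cadmium replicate 3). The difference in the share of counts, 0.41 percentage points, ran from -3.19 (without control replicate 2) to 2.86 (without control replicate 1) and was -2.97 without cadmium replicate 3, so its sign reversed; the cause was not tested. The number of peaks near another gene's peak was 80 within 1 kb and 483 within 20 kb. Over 668 refits of the 54 named called peaks, 560 kept the call and its direction, 108 lost the call and 0 changed sign. Over 1883 refits of the 149 named peaks not called, 34 gained a call and 133 changed sign without a call. At under 1 CPM, as for Gm31333 and 2310034O05Rik in control samples, low counts limit the precision of a fold change.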

Other observations

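Peaks without any gene symbol, which entered the comparisons above only as part of all tested peaks, were called at 174 of 1540 (101 higher, 73 lower, 11.3%, median log2 change 0.08). The share among predicted and RIKEN peaks (9.0%) lay between these and peaks with another symbol (5.92%).

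By chromosome, the share of called peaks among predicted and RIKEN peaks was highest on chromosomes 12 (20 of 73), 10 (21 of 86) and 16 (11 of 52), which hold Gm34667, Gm36041, and Gm31583 with 1810053B23Rik. On chromosome 1, 0 of 85 tested peaks were called by edgeR's test.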
